A study of Mus musculus with 18 samples.

Results

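The T cell receptor loci hold the gene segments from which each T cell builds its antigen receptor. Overlapping peaks (by 1 bp or more) from the 18 libraries gave 33115 union regions on mouse build mm10, and those centred in 3 intervals were taken: the alpha/delta locus (chr14:52427967-54224806, 1797 kb), the beta locus (chr6:40891296-41558371, 667 kb) and the gamma locus (chr13:19178042-19356471, 178 kb). This gave 47 of the 33115 regions, with 25 in the alpha/delta, 20 in the beta and 2 in the gamma locus. They held 273 of the 314425 peaks used.

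The libraries were ATAC-seq, in which Tn5 transposase tags open DNA, from naive CD4+ T cells of untreated C57BL6/J mice, whose genotype the labels give as WT. Cells were freshly prepared from the spleen, mesenteric lymph nodes or axillary lymph nodes and divided by the level of the reporter Nr4a1-dsGFP into low and high tonic T cell receptor (TCR) stimulation. Nr4a1 is a gene that TCR signals switch on. Each of the 6 groups had 3 libraries, called biological replicates in the labels, which do not say whether they came from separate animals, so the p-values below measure the spread between these samples and this may be technical. The design crosses the level of tonic stimulation with the organ from which cells were taken.

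A receptor chain is made by V(D)J recombination, in which the RAG enzymes join a V segment to a J segment, with a D segment between them in the beta and delta chains, and the DNA between the joined segments is usually lost from the chromosome. Promoters in front of V and D segments and enhancers near the C segments open these loci during development in the thymus and drive transcription of the rearranged gene afterwards. The delta segments lie inside the alpha locus. In mature alpha beta T cells each cell uses its own V segment, so a V promoter in use in a few cells is diluted in a mixed population. In such bulk libraries, a smaller share of cells with an open region and a weaker signal per cell cannot be told apart.

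Naive CD4 T cell genes had open regions in these libraries. Within 10000 bp of the gene, 8 of 11 markers (Cd3d, Cd3g, Cd4, Cd28, Lck, Lef1, Ccr7 and Il7r) had a region with a peak in all 18 libraries, and at most 14 and 17 libraries had one at Cd3e and Tcf7. Of 6 gamma delta T cell markers, 0 had a region in all 18 libraries and Blk and Il17a had no region, although a region near Il23r was in 17 libraries. Ms4a1 of B cells and Ncr1, Klrb1c and Klra8 of NK cells had no region, whereas regions near Ebf1 (18 libraries), Cd79a (17), Eomes (15) and Cd8b1 (18) were present. Of the myeloid, dendritic and erythroid markers 1 of 4, 2 of 3 and 1 of 3 had a region in all 18 libraries, and 1 of 6 B cell markers and 0 of 4 NK cell markers did. The part of other cell types in the results below was not tested. Depth, recovered from the peak values as reads per 10 kb of genome background, was lowest at 8.48 in an axillary low library and highest at 16.6 in 2 mesenteric high libraries, and lists held 14372 to 23129 peaks. The mesenteric high libraries were the deepest group with the longest lists, which bears on every count of regions.

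The 3 loci differed in how many of their regions were shared. In the beta locus 4 of 20 regions had a peak in all 18 libraries, 12 in 2 to 17 and 4 in 1. In the alpha/delta locus 1 of 25 had a peak in all 18, 15 in 2 to 17 and 9 in 1. The gamma locus had 1 region in 17 libraries and 1 in a single library. Across the genome 26.4% of union regions were in all 18 libraries and 19.0% were in 1. By length, the beta locus held 30.0 regions per Mb and 6 per Mb in all 18 libraries, against 13 and 3.44 over all chromosomes. The alpha/delta locus held 13.9 and 0.557, and the gamma locus 11.2 and 0. The immunoglobulin loci, which T cells do not use, held 25 regions at Igh (9.08 per Mb, 2 in all 18 libraries), 3 at Igk (0.946 per Mb) and 0 at Igl.

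**Figure D1:**
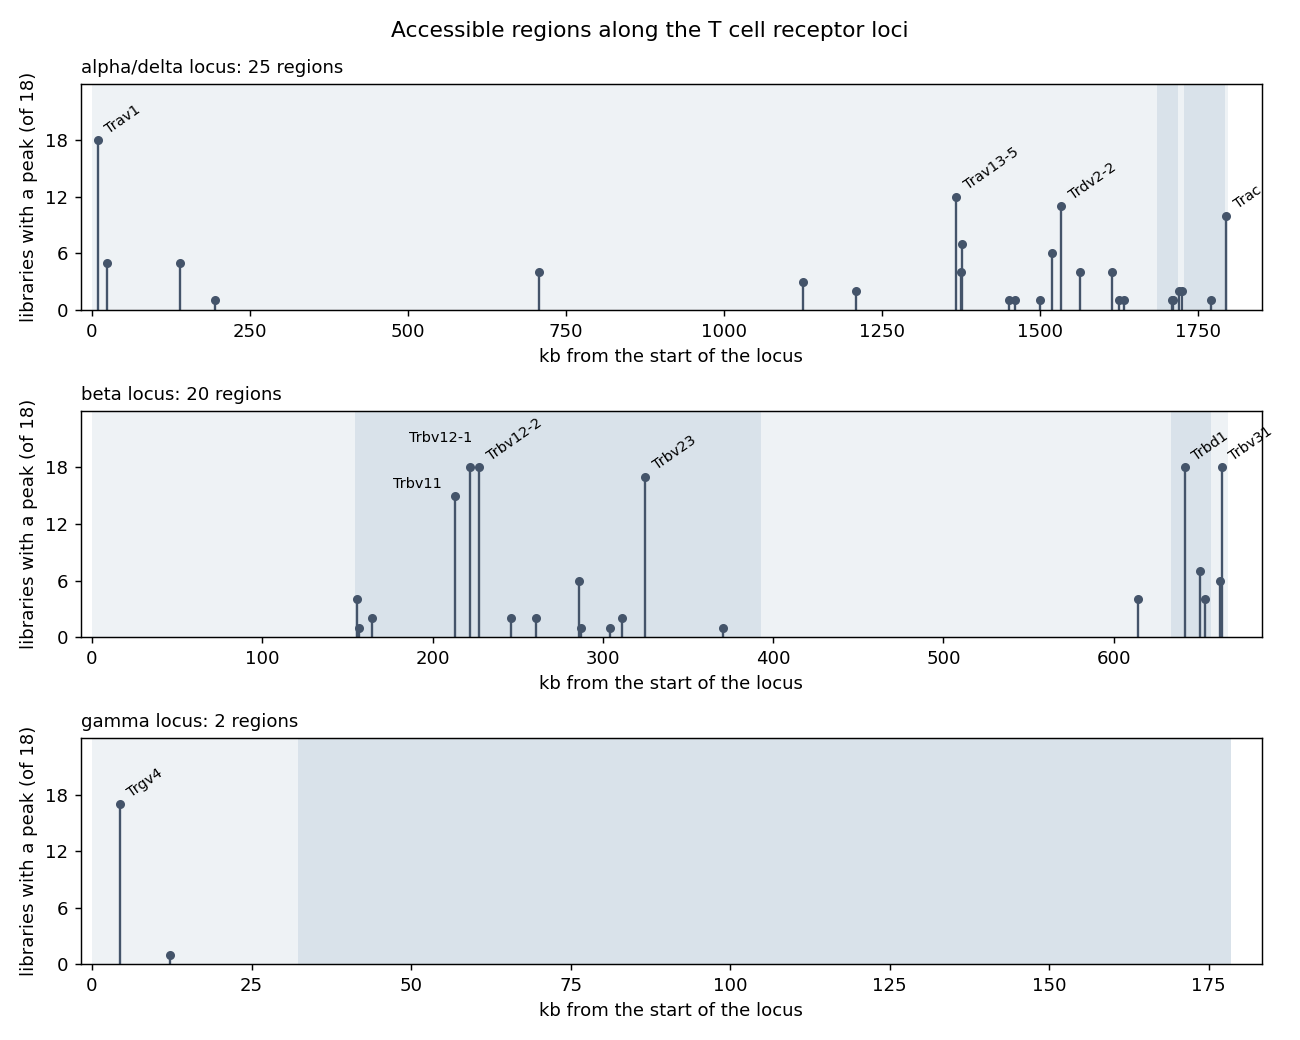
Number of libraries with a peak (of 18) at each region, plotted against the distance in kb from the start of the alpha/delta, beta and gamma locus. Alternating shades mark blocks of segments, and names give the nearest segment of regions in 10 or more libraries. The beta regions in all 18 libraries lie in the Trbv12 pair and at the D, J and C end, the single such alpha/delta region lies 8.98 kb from the start, and long stretches hold no region.

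In the alpha/delta locus, 19 of the 25 regions lay in the 1686 kb of V segments, 2 among the delta D, J and C segments, 2 between Trdc and Traj61, 1 among the 60 J alpha segments and 1 in Trac, the C alpha gene. Of 119 V segments not annotated as pseudogenes 10 (8.40%) had a region within 1000 bp. Of 17 V pseudogenes 1 had one, that of Trav22 in 1 library. These counts include regions just outside a locus. The segments were Trav1, Trav2, Trav5-1, Trav11n, Trav14-1, Trav13-2, Trav13-5, Trdv2-1, Trdv2-2 and Trdv5. In the beta locus 9 of 22 V segments not annotated as pseudogenes (40.9%) had one: Trbv1, Trbv2, Trbv3, Trbv12-1, Trbv12-2, Trbv16, Trbv19, Trbv21 and Trbv23. The 13 beta V pseudogenes had 0. In the gamma locus 2 of 7 V segments had one, Trgv7 and Trgv6.

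Regions were missing from long stretches. The longest in the alpha/delta locus were 512 kb with 49 V segments (Trav5-1 to Trav6n-6) and 418 kb with 44 V segments (Trav11n to Trav13-1). In the first, all but Trav5-1, Trav6-1, Trav7-1 and Trav6-2 carry the d or n of a duplicated cluster in their names. In the second, 29 do. Reads from near-identical copies may be placed in either copy or discarded, and the sources used here do not say how such reads were treated, so their part in these gaps was not tested. A stretch of 158 kb with 16 V segments from Trav14-2 to Trav12-4, none with such a name, also had no region. Segments in it such as Trav14-2 and Trav3-3 have d and n counterparts by name (Trav14d-2 and Trav14n-2, Trav3d-3 and Trav3n-3). The part of copies in this gap was not tested either. A further 115 kb with the olfactory receptor genes Olfr1508 and Olfr1507 and the gene model Gm36448 had no region. In the beta locus the longest gap was 243 kb over 3 V segments (Trbv28 to Trbv30) and 7 genes of the trypsinogen block (Try4 to Prss1), and the next was 155 kb from Trbv1 over 5 genes from Prss58 to 2210010C04Rik. Trypsinogens are pancreatic proteases whose genes lie between beta V segments and are not part of the receptor. The last 166 kb of the gamma locus, with 5 V segments and 4 J segments, had none.

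The edges of the intervals cut through open regions. A region over the start of Trav1 (chr14:52427538-52428023) was centred 186 bp outside the alpha/delta interval and had a peak in 18 libraries with a median of 16 scaled summit reads. Scaled summit reads are the whole reads piled up at the peak summit divided by a factor for each library that sets the median ratio over shared regions to 1. A region over the start of Trbv1 (chr6:40890846-40891466) was 140 bp outside the beta interval, in 18 libraries, with a median of 15.8. A region 52 bp before Trgv7 (chr13:19177716-19177990) was 189 bp outside the gamma interval, in 4 libraries, with a median of 9.59. The nearest regions inside were the alpha/delta region described next (18 libraries, median 10.4), a region 574 bp before Trbv2 (4 libraries, median 9.01) and the region before Trgv4 (17 libraries, median 12.5).

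The only alpha/delta region in all 18 libraries was chr14:52436677-52437215, between genes and 7801 bp after the end of Trav1. Its scaled summit reads were 12.8, 8.15 and 7.43 in spleen low, 13.4, 14.3 and 9.16 in spleen high, 6.90, 12.8 and 5.92 in mesenteric low and 10.8, 9.98 and 10.6 in mesenteric high libraries. They were 9.96, 10.2 and 6.96 in axillary low and 10.5, 10.9 and 14.4 in axillary high libraries. High libraries ranged from 9.16 to 14.4 and low ones from 5.92 to 12.8, so the levels overlapped. The difference of high minus low was 0.35 on the log2 scale (SE 0.14, limma adjusted p = 0.231 over 8756 regions), which did not pass the test, and 1.51% of all regions passed it. The difference was 0.36 in spleen, 0.33 in mesenteric and 0.37 in axillary libraries, with limma adjusted p = 0.700, 0.657 and 0.667. Among regions in all 18 libraries this was a weak one: 8677 of 8756 had a higher median.

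Reads along chromosome 14 were shifted in the same direction. The median high minus low difference was 0.12 over the other 367 regions of chromosome 14 in all 18 libraries and 0.20 over the 43 within 2 Mb outside the locus, all 43 of which were above 0. It was 0.00 over all 8756 regions, -0.03 on chromosome 6 and -0.02 on chromosome 13. Within 2 Mb of the locus it was 0.16 in spleen, 0.23 in mesenteric and 0.21 in axillary libraries. The part of this shift in the differences at alpha/delta regions was not tested.

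In the deposited lists, mesenteric high libraries held the most alpha/delta regions. A library there had 14.3 ± 1.53 regions (13, 14 and 16, SD, n = 3). In mesenteric low cells it had 3.67 ± 1.15 (n = 3), in spleen high 5.67 ± 1.15, in spleen low 5.00 ± 1.73, in axillary high 4.67 ± 1.53 and in axillary low 2.67 ± 1.15. No library outside the mesenteric high group had more than 7. The ratio of mesenteric high to low was 3.91, against 1.40 for the other regions of chromosome 14 and 1.33 for all regions. At equal depth it was 4.14 (means of 9.67 and 2.33) against 1.18 for all regions, and with lists of equal length it was 3.00 (5.00 and 1.67) against 1.01. With lists of equal length mesenteric high cells no longer stood apart from the other high groups: they held 3 to 7 regions, spleen high 3 to 6 (mean 4.33) and axillary high 3 to 5 (mean 4.33), and mesenteric low had the fewest, 1 to 3. With a −log10 q of at least 10 the means were 4 and 1. No test of a sum over the members was made, and these alternatives were chosen after the data were seen.

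Counts in the beta locus were closer between the levels in the deposited lists. Its libraries held 10.7 ± 1.15 regions in mesenteric high and 9.67 ± 2.08 in mesenteric low cells (SD, n = 3 each). They held 7.33 ± 1.53 and 6.33 ± 0.577 in spleen high and low and 7 ± 0 and 8 ± 1.73 in axillary high and low cells. The ranges of high and low overlapped or met in each organ in the deposited lists. With lists of equal length high was below low without overlap in mesenteric (5 to 6 against 7 to 8) and axillary libraries (6 in each against 7 to 10), and at the stricter threshold the means were 5.67 in mesenteric high and 3.33 in mesenteric low libraries. The difference between the 2 loci was not tested.

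**Figure D2:**
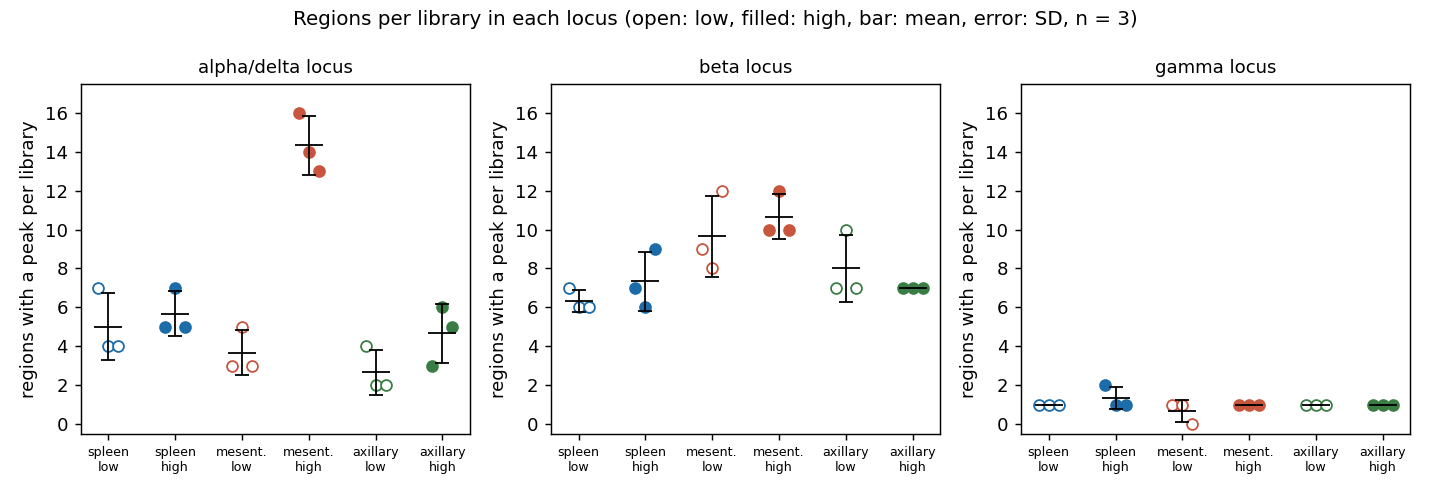
Regions with a peak per library in each locus, by organ and reporter level, with 3 libraries per group (points, open for low and filled for high), the mean (bar) and SD (error). The 3 mesenteric high libraries have 13 to 16 alpha/delta regions and every other library 7 or fewer in these deposited lists, whereas with lists of equal length mesenteric high libraries hold 3 to 7, which overlaps spleen high (3 to 6) and axillary high (3 to 5).

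The regions with more mesenteric high than low libraries lay in all blocks but that of the J alpha segments. A region 74 bp before Trav2 (chr14:52566904-52567219) had a peak in 3 of 3 mesenteric high libraries and 2 others, and a region over Trdv2-1 (chr14:53945894-53946411) in 3 and 3 others. Regions 61 bp before Trav11n, 299 bp before Trav14-1, 539 bp after Trav13-2, 9219 bp before Trdv3 and 32451 bp before Trdv4 had a peak in 2 of 3 mesenteric high libraries and in 0 of 3 mesenteric low libraries. Of these, the Trav11n region was also in 2 axillary libraries, the Trav14-1 region in 1, the Trdv3 region in 2 and the Trdv4 region in 2 spleen libraries. The Olfr1509 region and 2 regions before Trav17, described below, were in 2, 2 and 3 mesenteric high and 0 mesenteric low libraries. Further regions before Trav5-1, after Trdv1, over Trav22 and 14900 bp before Trdv4 were each in 1 mesenteric library, and regions after Trav21-dv12 and 21769 bp before Trdv4 each in 1 spleen library. Of the 14 members found in 1 library, 7 were in a mesenteric high library, and over the genome 49.4% of single-library regions were. With lists of equal length, the regions near Trav13-2, Trdv3, 32451 bp before Trdv4 and both before Trav17 were in 0 mesenteric libraries. Those near Trav11n, Trav14-1, Trdv2-1 and Olfr1509 were in 1, and the Trav2 region in 3. Mesenteric high lists held a mean of 22705 regions, against 17062 in mesenteric low. The share of all regions with such a difference was not counted.

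The region most tied to an organ lay 565 bp before Trav13-5, a V alpha segment (chr14:53794502-53794890). It had a peak in 6 of 6 spleen, 6 of 6 mesenteric and 0 of 6 axillary libraries. Scaled summit reads were 8.49 at the lowest and 14.2 at the highest in spleen and 5.91 to 12.8 in mesenteric libraries, and there are no values without a peak. The exact Fisher-Freeman-Halton test across organs gave p = 0.000162, the smallest this design can give, and a Benjamini-Hochberg adjusted p of 0.0881 over 7630 regions, so the region did not pass. Of the 662 regions present in 12 libraries, 5 had this pattern (0.755%), and 1 of them lay on chromosome 14. Leaving out spleen low replicate 3, mesenteric low replicate 1 or axillary high replicate 1 gave adjusted p = 0.0481, 0.0484 and 0.0463 by the same exact test, past the threshold. The organs' counts were 6, 4 and 0 with lists of equal length, 4, 6 and 0 at equal depth and 2, 3 and 0 at the stricter threshold.

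Depth and fragment length also differed between organs. At the median level of the called peaks an axillary library would hold 8.59 to 9.85 summit reads there, and 5 or 6 reads were the fewest that could be called at the local background of those peaks; the local background in axillary libraries is not known. Fragment length moved with the organ: the narrowest peak, which equals the fragment length used by the caller, was 216 to 236 bp in 6 libraries, 5 of them axillary, and 161 to 176 bp in the other 12. The library spleen low 3, at 233 bp, had the peak with 8.49 scaled reads, and axillary high 2, at 176 bp, did not have it. The part of depth and of fragment length in this pattern was not tested.

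A pair of regions followed 2115 and 3841 bp before Trav17, in 7 and 4 libraries. The second of these was in 4 high and 0 low libraries, too few to be tested. How many of all regions in 4 libraries had this pattern was not counted. With lists of equal length this second region was in 0 libraries, and at equal depth in 2. Further on, a region over the start of Trdv2-2, a V delta segment (chr14:53960818-53961338), had a peak in 11 libraries, 6 high and 5 low, with a median of 9.22 scaled reads. A region in Olfr1509 (chr14:52451110-52451499), an olfactory receptor gene after Trav1, was in 5 high and 0 low libraries, a pattern held by 94 of the 1163 regions present in 5 libraries (8.08%). It was in 2 spleen, 2 mesenteric and 1 axillary library, with scaled reads of 6.04 to 9.16.

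The delta and J alpha parts were almost without peaks. Regions 297 and 1415 bp after Trdj2, a J delta segment, were each in 1 mesenteric high library. A region 842 bp before Trdv5, a V delta segment that lies after Trdc, was in 2 mesenteric libraries. A region 1883 bp before Traj61, the first J alpha segment, where the promoter of the T early alpha transcript lies, was in 2 libraries, and 1 region 379 bp after Traj22 was in 1 axillary high library. The 60 J alpha segments otherwise held none.

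Trac was open in 10 libraries. The region (chr14:54222264-54222739) was found in 7 high and 3 low libraries (exact Fisher p = 0.153, adjusted p = 0.811 over 5737 regions). Scaled summit reads were 31.5, 22.3 and 31.7 in mesenteric high, 13.8 in the single mesenteric low library with a peak, and 18.3 to 25.6 in the other 6. The reads in the 10 kb around it, which the caller uses as local background, were 21.8 to 23.0 times the genome background in mesenteric high libraries and 12.4 to 16 times in the rest. A peak must rise above that level, so libraries without a peak were not shown to be closed there.

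The interval of the alpha enhancer, between Trac and Dad1, lay just outside the locus. The region there (chr14:54227257-54227934, 3059 bp after Trac) was in all 18 libraries. Scaled reads in mesenteric libraries were 21.7, 17.7 and 23.7 in low and 26.9, 32.3 and 35.4 in high cells, which did not overlap. High minus low was 0.56 in mesenteric nodes (SE 0.16, limma adjusted p = 0.0465), against 1.42% of regions called in that contrast. It was -0.02 in spleen and 0.26 in axillary libraries (limma adjusted p = 0.987 and 0.653), and 0.27 averaged over the organs (limma adjusted p = 0.129). The limma F test of the difference between organs did not pass (adjusted p = 0.448). The mesenteric call ended with reads scaled within chromosome 14 (0.45, adjusted p = 0.143), with the authors' fold (0.05, adjusted p = 0.930) and without mesenteric low replicate 2 (0.45, adjusted p = 0.252). It was also lost without mesenteric low replicate 1 or 3 or mesenteric high replicate 2 or 3, with limma adjusted p = 0.0867, 0.0568, 0.179 and 0.265, and with the genome background (0.52, limma adjusted p = 0.116) or regions in at least 12 libraries (0.56, limma adjusted p = 0.0546). Axillary libraries held 26.6 to 39.9 scaled reads there, and axillary minus mesenteric was 0.39 (SE 0.11, limma adjusted p = 0.0166), where 11.4% of regions passed. This call was lost with the genome background (0.21, limma adjusted p = 0.199) and without mesenteric low replicate 2, mesenteric high replicate 1 or axillary low replicate 2 (limma adjusted p = 0.0576, 0.0704 and 0.0955). Its local background was 23.1 to 26.2 in mesenteric high and 14.8 to 16.8 in mesenteric low libraries, 17.7 to 19.7 and 12.8 to 15.0 in axillary high and low, and 15.2 to 17.8 and 15.0 to 16.7 in spleen high and low. Over the 368 chromosome 14 regions in all 18 libraries the median local background was 6.88 in high and 6.24 in low libraries. Further regions 9016 and 29476 bp after Trac were also in all 18 libraries. Their high minus low differences were 0.38 (SE 0.12, limma adjusted p = 0.0719) and 0.24 (SE 0.09, limma adjusted p = 0.196). In spleen, mesenteric and axillary libraries these were 0.41, 0.32 and 0.41 at the nearer region and 0.44, 0.09 and 0.19 at the farther one.

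**Figure D3:**
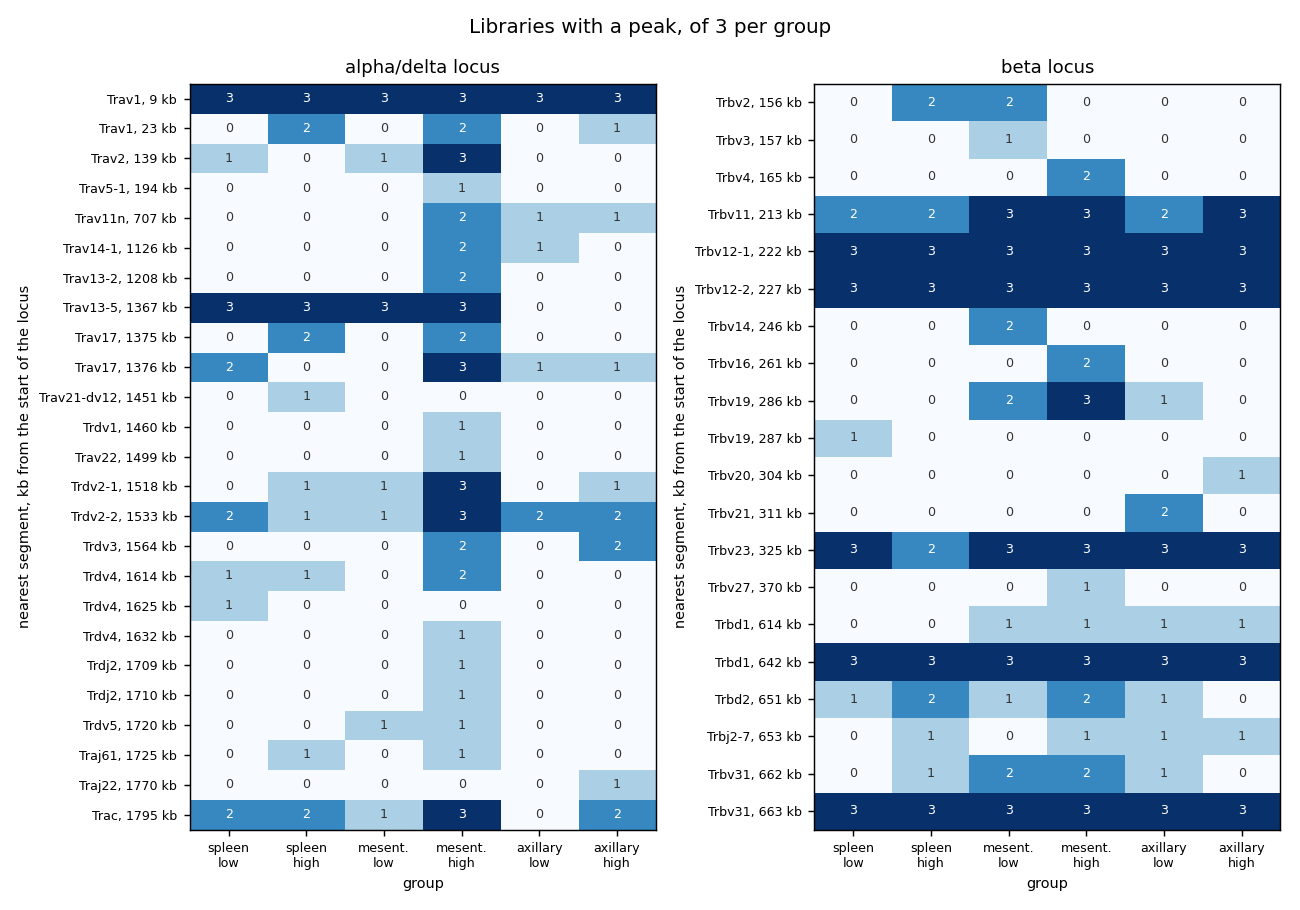
Libraries with a peak, of 3 per group, at each alpha/delta (left) and beta (right) region in order of position, labelled by the nearest segment and the kb from the start of the locus. The Trav13-5 region has 3 in each spleen and mesenteric group and 0 in both axillary groups, and the mesenteric high column is filled most in the alpha/delta locus.

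In the beta locus, 14 of 20 regions lay among the V segments, 1 among the trypsinogen genes, 3 among the D, J and C segments and 2 between Trbc2 and Trbv31. Regions over Trbv12-1 (chr6:41112878-41113618, summit 369 bp before the segment) and Trbv12-2 (chr6:41118297-41118940, summit 427 bp before) had a peak in all 18 libraries. Their names mark them as members of 1 family, and reads from a close copy cannot be assigned with certainty. Trbv12-1 had a median of 21.2 scaled summit reads, with a range of 16.3 to 22.4 in spleen, 14.8 to 21.9 in mesenteric and 18.1 to 27.4 in axillary libraries. The organs overlapped, and axillary minus mesenteric was 0.34 (SE 0.13, limma adjusted p = 0.0830), with no pass.

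Trbv12-2 had a median of 16.5, from 10.3 in a spleen high to 19.9 in an axillary low library. The high minus low difference was -0.05 (SE 0.12, limma adjusted p = 0.908). Its organ contrasts did not pass either, with adjusted p = 0.938 for axillary minus mesenteric, but they depended on the scale. With the authors' fold, axillary minus mesenteric was -0.31 (SE 0.12, limma adjusted p = 0.0409), and with reads scaled to the genome background mesenteric minus spleen was 0.43 (SE 0.15, limma adjusted p = 0.0338). Those scales moved the median of all regions by -0.21 and 0.21 in these contrasts.

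Between these and the next shared region, peaks were patchy. A region over the start of Trbv23 (chr6:41215732-41216396) was in 17 libraries, all but spleen high 2, with a median of 13.1 and a range of 9.86 to 22.8. A region 2383 bp before Trbv11 (chr6:41103974-41104422) was in 15, with a median of 12.8. The region 1094 bp before Trbv19 (chr6:41177125-41177495) was in 0 of 6 spleen, 5 of 6 mesenteric and 1 of 6 axillary libraries (exact Fisher-Freeman-Halton p = 0.0118, adjusted p = 0.280), and in 0, 1 and 1 with lists of equal length. Of the 10 members tested across organs, this one and the Trav13-5 region had an unadjusted p below 0.05, and 11.2% of all regions tested did. After adjustment 0 of 7630 passed.

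The single region in the 241 kb second block of trypsinogen genes (chr6:41504986-41505620, 27581 bp before Trbd1) had a peak in 4 libraries with a local background of 1.00 times the genome's. The 8 beta regions not yet named lay near Trbv3, Trbv4, Trbv14, Trbv16, Trbv19, Trbv20, Trbv21 and Trbv27, each in 1 or 2 libraries.

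At the D segments, a region 72 bp before Trbd1 (chr6:41532583-41533129), at the site of the D beta 1 promoter, had a peak in all 18 libraries. Scaled reads were 18.7, 24.4 and 19.1 in spleen low and 11.4, 17.3 and 14.2 in spleen high cells. They were 10.8, 11.8 and 11.8 in mesenteric low and 18.4, 20.0 and 15.8 in mesenteric high cells. Low was above high in every spleen library and high above low in every mesenteric one, whereas axillary low (14.4, 21.5 and 17.4) and axillary high (22.1, 16.9 and 20.0) overlapped. High minus low was -0.52 in spleen (SE 0.21, limma adjusted p = 0.387), where 0.206% of regions passed, and 0.61 in mesenteric nodes (SE 0.21, limma adjusted p = 0.124). In axillary nodes it was 0.15 (SE 0.21, limma adjusted p = 0.872), and 0.320% of regions passed. The limma F test of the difference between organs gave an adjusted p of 0.149, which did not pass, and 0.251% of regions passed it.

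Local reads there had the same order. The background in the 10 kb window was 5.54 to 5.79 in spleen low and 3.78 to 4.42 in spleen high libraries, and 4.54 to 5.59 in mesenteric low and 6.52 to 7.16 in mesenteric high libraries. A region 37 bp before Trbd2 (chr6:41541778-41542126), the other D beta segment, was in 7 libraries, with a median of 14.3 scaled reads over a local background of 8.91 to 15.8. A region 595 bp after Trbj2-7, the last J beta segment, was in 4.

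The strongest region of all 3 loci lay between Trbc2 and Trbv31, where the beta enhancer is (chr6:41554219-41555068, 2625 bp before Trbv31). Its median was 40.1 scaled summit reads, and 1041 of 8756 regions in all 18 libraries (11.9%) had a higher one. It was 36.5, 47.9 and 47.8 in spleen low, 36.2, 34.6 and 31.6 in spleen high, 42.4, 24.6 and 33.5 in mesenteric low and 31.5, 36.9 and 39.2 in mesenteric high libraries. It was 40.9, 45.3 and 54.5 in axillary low and 47.4, 53.1 and 44.5 in axillary high libraries. The lowest axillary library, at 40.9, lay above 5 of 6 mesenteric libraries. Axillary and spleen libraries overlapped, with spleen low at up to 47.9.

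Axillary minus mesenteric was 0.46 on the log2 scale (SE 0.10, limma adjusted p = 0.000807), the only 1 of the 5 testable members that passed in any contrast, and 11.4% of regions passed this one. Those 5 are the alpha/delta region after Trav1, both Trbv12 regions and the Trbd1 and enhancer regions. Axillary minus spleen was 0.29 (SE 0.10, limma adjusted p = 0.0564) and high minus low -0.06 (SE 0.08, limma adjusted p = 0.811). Within organs high minus low was -0.35 in spleen (SE 0.14, limma adjusted p = 0.380), where the 3 low libraries lay above the 3 high ones, 0.12 in mesenteric and 0.05 in axillary nodes (limma adjusted p = 0.803 and 0.949). The contrasts share the axillary libraries. Of the 12 tested regions near the alpha beta CD4 T cell markers, 4 were called higher in axillary than in mesenteric libraries and 0 lower (median 0.16). In axillary against spleen libraries 5 of them were higher and 0 lower (median 0.30), where 6.91% of all regions passed. These marker counts were taken with the median-ratio scaling only. The call at the enhancer region ended with reads scaled to the genome background, where its difference was 0.28 (limma adjusted p = 0.0566) and the median of all regions was -0.19. With the authors' fold the difference was -0.04 (limma adjusted p = 0.829) and the median of all regions -0.21. Over all regions, 552 were higher and 447 lower in axillary libraries, against 103 and 2070 with the genome background and 8 and 3319 with the fold.

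That fold divides summit reads by local reads, and local reads were also highest in axillary libraries. The local background at the enhancer region was 23.3 to 26.1 in axillary, 16.9 to 23.6 in mesenteric and 16 to 19.7 in spleen libraries. By fragment length, spleen low 3 (233 bp) had 47.8 and spleen low 2 (170 bp) 47.9 scaled reads, and axillary high 2 (176 bp) had 53.1. With 5 of the 6 libraries of long fragments axillary, the part of fragment length in this difference was not tested. A second region in that interval (chr6:41553366-41553677) was found in 6 libraries, of which 3 were high.

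**Figure D4:**
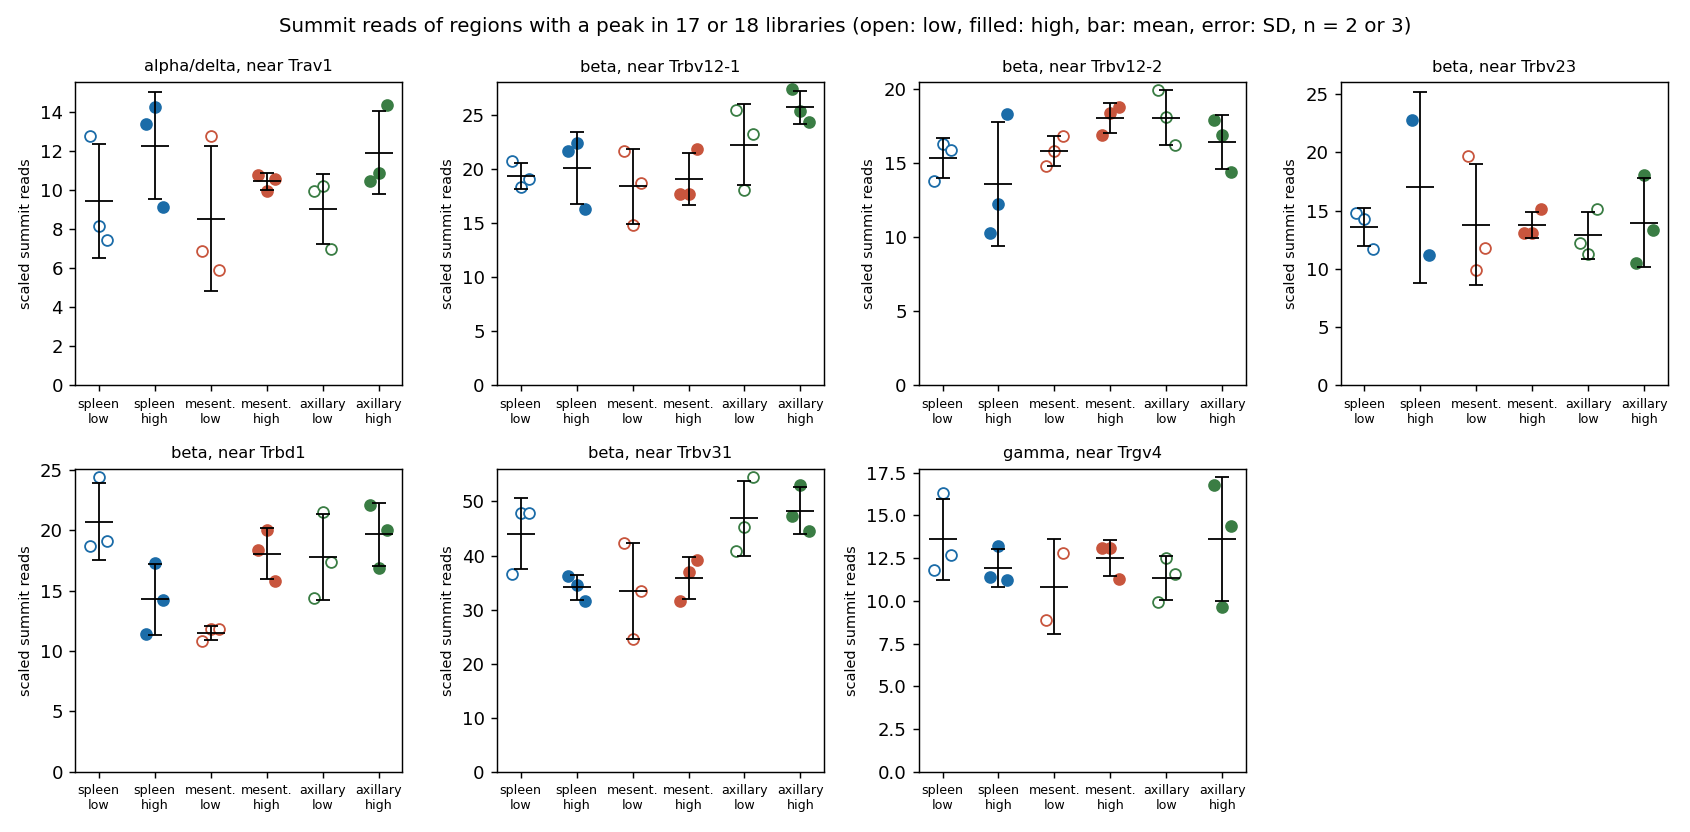
Scaled summit reads of the 7 regions with a peak in 17 or 18 libraries, by organ and reporter level, with 1 point per library (open for low, filled for high), the mean (bar) and SD (error). At the region near Trbd1 low exceeds high in spleen and high exceeds low in mesenteric nodes, and at the region near Trbv31 axillary libraries lie at 40.9 to 54.5.

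The gamma locus had 1 frequent region, 2304 bp before Trgv4, a V gamma segment (chr13:19182178-19182677), within the gene model Gm31887. It had a peak in 17 libraries, all but mesenteric low 3, so it was not in the test of reads. Scaled reads were 8.87 at the lowest in mesenteric low 1 and 16.8 at the highest in axillary high 1, with a median of 12.5. Spleen libraries ranged from 11.2 to 16.3, mesenteric from 8.87 to 13.1 and axillary from 9.66 to 16.8, so the organs overlapped. The second region, 52 bp before Trgv6 (chr13:19190150-19190316), was in 1 spleen high library. The 146 kb from the first J gamma segment on, which hold the J and C cassettes of the chain, had 0 regions, although a region 13266 bp after Trgc4, in Stard3nl, was in 3 libraries.

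Position within the locus went with the reads around a summit. In the alpha/delta locus the median local background of a region was 1.00 to 3.88 times the genome background among V segments, 1.44 to 1.51 at the delta segments, 1.75 to 2.36 between Trdc and Traj61, 6.91 at Traj22 and 14.5 at Trac. In the beta locus it was 1.11 to 7.40 among V segments, 1.00 in the trypsinogen block, 5.61 at Trbd1, 10.9 at Trbd2, 16.7 after Trbj2-7 and 17.2 and 19.8 between Trbc2 and Trbv31. Over all union regions the median was 2.71, and 0.586% of them exceeded the beta enhancer region and 1.94% the Trac region. Both loci thus had their highest local reads at the C end. The caller takes no local background below 1.00, and the value is known only where a peak was called. The window holds the summit and its neighbours, so it is not independent of them.

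**Figure D5:**
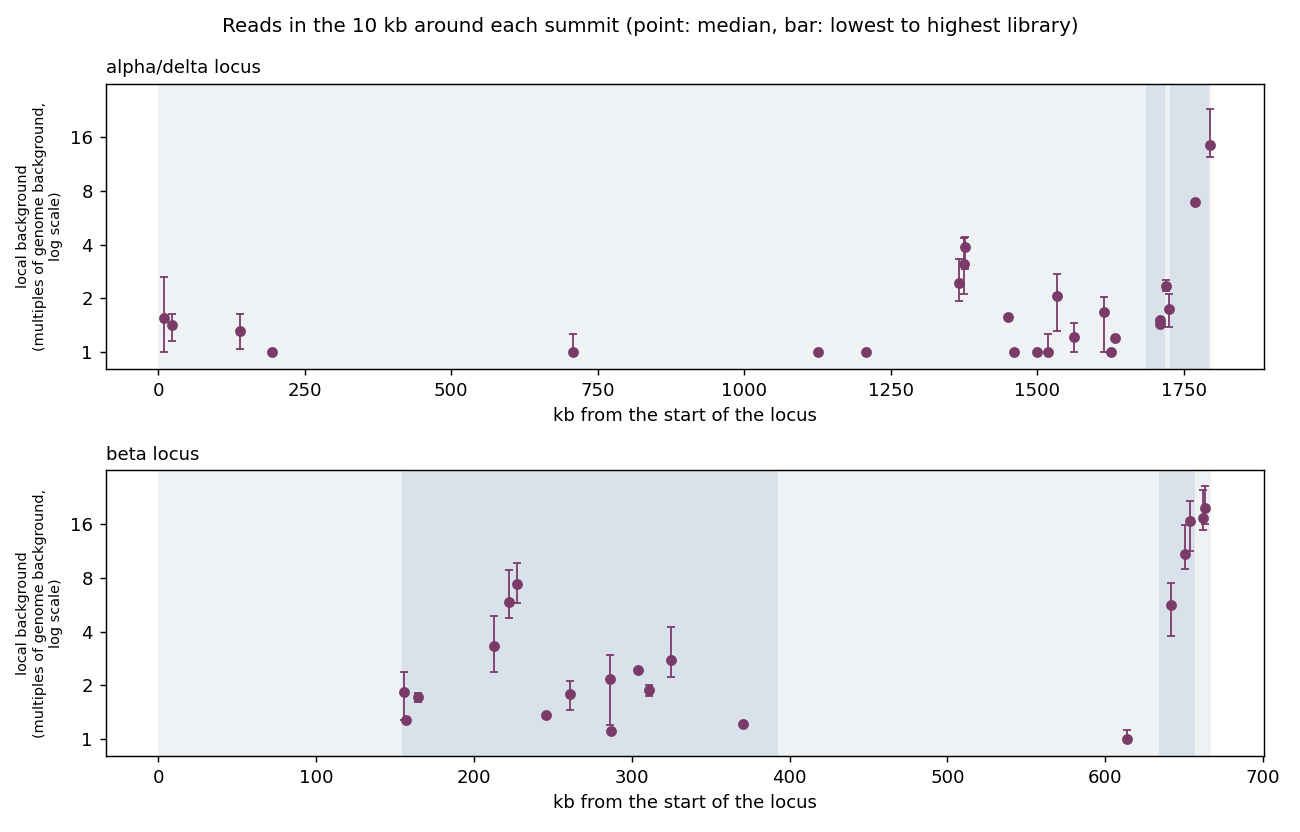
Reads in the 10 kb around each summit as multiples of the genome background (log scale) against the distance in kb from the start of the alpha/delta and beta loci. Points are medians over the libraries with a peak, bars run from the lowest to the highest library and shades mark blocks of segments. Values stay between 1.00 and 7.40 over the V segments and reach 14.5 and 19.8 at the C ends.

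High against low gave no call in the members. On summit reads 0 of 5 passed in limma, and 1, the region after Trav1, had an unadjusted p below 0.05. Of 8 members in 6 to 12 libraries, 0 passed the exact Fisher test and 0 had an unadjusted p below 0.05. Over all 5737 regions 0 passed after adjustment, 5.84% had an unadjusted p below 0.05 with more high libraries and 0.261% with more low libraries. Among these 8 the largest differences were at Trac (7 against 3) and Trdv2-1 (5 against 1, exact Fisher p = 0.131, adjusted p = 0.811). The smallest p that the exact Fisher test can give here is 4.11e-05, with a peak in every high and no low library. Adjusted over 5737 regions, 1 region alone at that p would not pass. The lack of calls on presence therefore does not show that the levels were alike.

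Genes that work with these loci were read from 3 lists by regions within 10000 bp. The TCR partner list (Cd3e, Cd3d, Cd3g, Cd247, Cd4, Ptcra, Lck and Zap70) had 35 regions, 5 in all 18 libraries. Of these 5 tested on reads, 0 passed for high minus low, with a median of 0.01, and a Cd4 region was higher in axillary than in spleen (0.33, SE 0.06, limma adjusted p = 0.000175) and mesenteric libraries (0.28, SE 0.06, limma adjusted p = 0.000829). Cd4 encodes the coreceptor. Of the 11 tested regions of the recombination list, 0 passed for high minus low (median 0.04). A region of Xrcc4, a DNA end-joining factor, was lower in mesenteric than in spleen libraries (-0.26, limma adjusted p = 0.0430) and higher in axillary than in mesenteric ones (0.21, limma adjusted p = 0.0496), the latter 1 call in 11 where 11.4% of all regions passed. Regions within 10000 bp of Rag1 and Rag2, which cut the segments, were in at most 16 libraries, and a region near Dntt, whose enzyme adds bases at the joints, was in all 18.

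The locus factor list, 14 genes of factors known to bind or fold these loci, had 74 regions and 16 in all 18 libraries. For high minus low 0 of the 16 passed (median -0.02). In axillary against spleen libraries a region of Lef1, a factor that binds the alpha enhancer, was higher (0.50, SE 0.13, limma adjusted p = 0.00887) and a region of Cbfb, the partner of the Runx factors, was lower (-0.50, SE 0.14, limma adjusted p = 0.0166). A region of Creb1 was higher in axillary than in mesenteric libraries (0.23, SE 0.08, limma adjusted p = 0.0494), 1 call in 16 where 11.4% of all regions passed. In these contrasts 6.91% of regions passed for axillary minus spleen and 1.70% for mesenteric minus spleen. The organ calls of the 3 lists were read with the median-ratio scaling only. Their directions may depend on it: over all regions axillary minus spleen had 315 higher and 290 lower with that scaling. With the authors' fold it had 16 higher and 624 lower.

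Regions elsewhere with the most similar profile of scaled reads to the leading region of each locus were listed by Pearson r on the log2 scale, as a description over libraries that share depth and organ. For the beta enhancer region over 18 libraries they lay in or nearest to Tshr, Dnah6 and 4930523C07Rik (each r = 0.82), 1700025G04Rik (0.79) and Arhgef18 (0.78). For the alpha/delta region after Trav1 they lay in Mob3c (0.83), Gm46977 (0.81), Antxr2 (0.76) and Siah3 (0.75) and 92969 bp from Marcks (0.76). For the gamma region, over 17 libraries, they lay at BC055324 (0.72), Acaca (0.72), Trim41 (0.71), Slc37a2 (0.69) and Ero1a (0.69).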

How the data were processed

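The authors deposited 1 peak list per library on build mm10. The submitters' processing notes name Trimmomatic (0.33), Bowtie2, bedtools and MACS. Caller options, read shifting and the handling of duplicates are not stated there. The deposited columns used are a score, a fold enrichment (a ratio to local background, the authors' own value per peak), a −log10 p and a −log10 q. Of 314829 peaks, 404 on sequences other than chromosomes 1 to 19 and X were set aside. Peaks overlapping by at least 1 bp were merged. Segment names and positions came from RefSeq (GRCm38.p6, without strand), so "before" and "after" follow coordinates.

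Whole summit reads and local reads in 10000 bp were recovered from fold and p. At least 98.5% of peaks per library had exactly 1 matching pair within 0.002, and at least 93.9% of local backgrounds were whole reads within 0.02. Reads exist only where a peak was called, so limma 3.58.1 (R 4.3.3, log2 of scaled reads + 1, 6 groups) was run on the 8756 regions with a peak in all 18 libraries. Presence was tested with Fisher's exact test (regions in 6 to 12 libraries) and the exact Fisher-Freeman-Halton test (5 to 13), two-sided (SciPy 1.17.1), with Benjamini-Hochberg adjustment over all regions at 0.05. On simulated data for high minus low over 8756 regions, limma called 100 of 100 regions changed 2-fold, 80 of 100 changed 1.5-fold and 10 of the 8556 unchanged ones. The simulation drew Poisson counts around each region's mean, without a peak call and with the change in every organ. Its rates need not hold for contrasts within 1 organ or for weak regions. Alternatives were other scalings, the deposited fold, another pseudocount, regions in at least 12 libraries, lists of equal length or depth, a stricter q, a replicate block and leaving out each library.

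Chi-square per shared region between libraries of 1 group was 0.512 to 0.636, and between groups 0.621 to 0.94. Poisson noise alone in unselected counts would give about 1, and pairs from different groups were also below it. These counts are summit reads of peaks called in all 18 libraries, a selected set for which 1 need not be the yardstick. The spread within a group may be technical, and these values cannot decide whether it is. Each library was kept because the labels call them biological replicates. Regions are named by position: those in all libraries with the highest reads or largest differences, and partial ones with the largest difference in libraries. Members, lists and naming rule were chosen with earlier results of these data known. Sequence of the regions and motifs were not analysed here. Some marker genes are not reported here by name.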

Additional observations from a re-analysis of the deposited data

How the results depend on the processing

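In member regions, calls for high minus low and its difference between organs stayed at 0 under each alternative. The beta enhancer call held under each one but the genome background scaling and the authors' fold. These gave 0.28 and -0.04 for axillary minus mesenteric. Axillary minus spleen at the enhancer region was -0.12 with the fold, against 0.29 with the median-ratio scaling and 0.23 to 0.34 without 1 library. With the fold the alpha enhancer flank had -0.02 for high minus low, against 0.27; the cause was not tested. Over all regions, 132 calls for high minus low became 67 with the genome background, 32 with the fold and 71 to 136 without 1 library (71 without mesenteric high replicate 2, and 87 without mesenteric low or high replicate 3). The 1753 calls between organs became 4502 with the genome background, 4275 with the fold and 1268 to 1729 without 1 library. The 22 calls of the difference between organs became 14 with the genome background, 0 with the fold (limma, 770 at an unadjusted p below 0.05) and 5 to 29 without 1 library (5 to 12 without any 1 of the 6 mesenteric libraries). Calls among members between organs were 1 to 2 without 1 library: the enhancer region also passed for axillary minus spleen without spleen low replicate 3, mesenteric low replicate 2 or axillary low replicate 1, and Trbv12-1 for axillary minus mesenteric without axillary low replicate 2. Presence across organs gave 0 to 25 calls without 1 library, and 0 to 1 among members, the Trav13-5 region.

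At the stricter threshold a library held 1.33 alpha/delta, 3.78 beta and 0.444 gamma regions, against 6, 8.17 and 1.00. The mesenteric difference of 10.7 alpha/delta regions became 3.33 with equal lists, 7.33 at equal depth, 3.00 at the stricter threshold and 9.83 to 11.3 without 1 library; the alternatives to this count were chosen after the data were seen. Replicate numbers did not pair libraries (correlation of deviations -0.0122 to 0.0181). With the replicate block limma called 1763 between organs and the enhancer difference was 0.46 (limma adjusted p = 0.000794); the mesenteric call at the alpha enhancer flank was lost (limma adjusted p = 0.0503). Presence by pairs in the block gave 0 calls.

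Depth sets what a missing peak means: 4 summit reads were the fewest callable at the genome background, and weak V regions sat near it. No sum over members was tested, and a gap in the peaks is not shown to be closed chromatin.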
